A study of Sus scrofa with 6 samples.

Results

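The genes described here were 10 histone acetyltransferases, KAT2A, KAT2B, KAT5, KAT6A, KAT6B, KAT7, KAT8, EP300, CREBBP and HAT1, whose messenger RNA was measured in porcine 2-cell embryos with and without knockdown of SIN3A. They were chosen by name and not by their values, and all 10 were found among the 17678 genes of the deposited expression table. The embryos came from mature pig oocytes at metaphase II, which were injected with siRNA and then activated without sperm, so they carried no paternal genome. The NC group received a non-specific siRNA, and the SIN3A KD group received 3 siRNAs against SIN3A, the scaffold protein that brings histone deacetylases to chromatin. Each group had 3 libraries, each from a pool of 20 embryos collected 32 h after activation, before the pig embryo activates its own genome on a large scale. Values are the authors' normalized abundances, on a scale where 1 sequenced read was worth between 0.716 and 1.46 in the 6 libraries. Because each library is a pool of whole embryos, fewer cells that carry a transcript and less of it in each cell cannot be told apart.

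Histone acetyltransferases move the acetyl group of acetyl-CoA to lysines of histone tails, which loosens chromatin and gives bromodomain proteins a place to bind, and histone deacetylases such as those held by SIN3A remove it again. The GNAT family includes KAT2A (GCN5) and KAT2B (PCAF), alternative catalytic subunits of the SAGA and ATAC coactivator complexes, and HAT1, which acetylates new histone H4 before it is placed on DNA. The MYST family includes KAT5 (TIP60) of the NuA4 complex, KAT6A (MOZ) and KAT6B (MORF), which are held by BRPF scaffold proteins, KAT7 (HBO1), which binds BRPF or JADE scaffolds, and KAT8 (MOF) of the MSL and NSL complexes. EP300 (p300) and CREBBP (CBP) are large paralogous coactivators that acetylate histone H3 at enhancers. Before embryonic genome activation the embryo draws mostly on transcripts stored by the oocyte.

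The set holds 3 pairs of paralogs, and the sequences below are shown because a read can be assigned to 1 member of a pair only where the paralogs diverge. Each line gives 30 bases of coding sequence from the RefSeq annotation of Sscrofa11.1, 5′ to 3′ on the strand of the gene. The first 20 bases are the end of the longest run that both paralogs share, and capitals mark the bases after it that differ.
EP300: tgcaagcaccacgtggagacAcgctggcac
CREBBP: tgcaagcaccacgtggagacGcgctggcac
KAT2A: ctggagaatgtgtcagaggaTgaGatTaac
KAT2B: ctggagaatgtgtcagaggaAgaAatGaac
KAT6A: gggctcattgatggccttacCaaAttCttt
KAT6B: gggctcattgatggccttacTaaGttTttt
The EP300 stretch lies in exon 31 at chr5:7314610-7314639 on the minus strand, and the CREBBP stretch in exon 30 at chr3:38525529-38525558 on the plus strand. The KAT2A stretch lies in exon 3 at chr12:20639502-20639531 on the plus strand, and the KAT2B stretch in exon 4 at chr13:7038351-7038380 on the plus strand. The KAT6A stretch lies in exon 7 at chr17:11047625-11047654 on the minus strand, and the KAT6B stretch in exon 8 at chr14:77546754-77546783 on the plus strand. The longest shared run was 52 bases for EP300 and CREBBP, 32 for KAT6A and KAT6B, and 26 for KAT2A and KAT2B. Of all 31-base words of the EP300 transcripts, 0.354% also occurred in CREBBP, and of those of KAT6A 0.0219% occurred in KAT6B, while KAT2A and KAT2B shared no such word.

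The labels were checked on the targeted gene first. SIN3A was at 37361, 33964 and 32404 in the NC libraries and at 3271, 1079 and 4173 in the SIN3A KD libraries, and 8.22% of its mean NC level remained (log2 fold change -3.81, SE 0.31, adjusted p = 8.447e-06 by limma). Without the variance trend its adjusted p was 0.423 and with robust empirical Bayes 0.469, at the same fold change. By the spacing of low values the NC libraries held about 7800000 to 12900000 reads and the SIN3A KD libraries about 10200000 to 15800000, and Spearman correlations across genes were 0.971 to 0.976 within groups and 0.969 to 0.976 between groups. Of 12 oocyte and early embryo markers, 9 were found, and each was above 0 in every library, with summed values of 67747 to 75054 in NC and 67027 to 82328 in KD. Of 10 cumulus and granulosa markers, 8 were found and 2 of them had a mean of at least 10, VCAN (799) and INHBA (12.1). The 8 summed to 782 to 956 in NC and 757 to 873 in KD, most of it VCAN. The 6 blood and stromal markers found summed to 104 to 169 in NC and 77.7 to 91.9 in KD.

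No difference between the groups passed the test for any of the acetyltransferases tested. Of the 10 genes, 9 had a mean value of at least 10 and were tested, and 0 were called at an adjusted p below 0.05 in limma, where 0.159% of the 11986 genes tested were called (19 genes). At an unadjusted p below 0.05, 0 of the 9 were called, against 4.61% of all genes tested. The mean KD level was between 93.3% and 112% of the NC level for the 9 genes. Their log2 fold changes, 6 above and 3 below 0, had a median of 0.0635, beside 0.00258 over all genes tested, and the median of their sizes was 0.0771, beside 0.12 over all genes. For 8 of the 9 the 95% interval of the log2 fold change lay within 0.5 of 0 in either direction, and KAT5 was the exception. Each of the 9 genes had an adjusted p of 0.997 by limma.

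**Figure D1:**
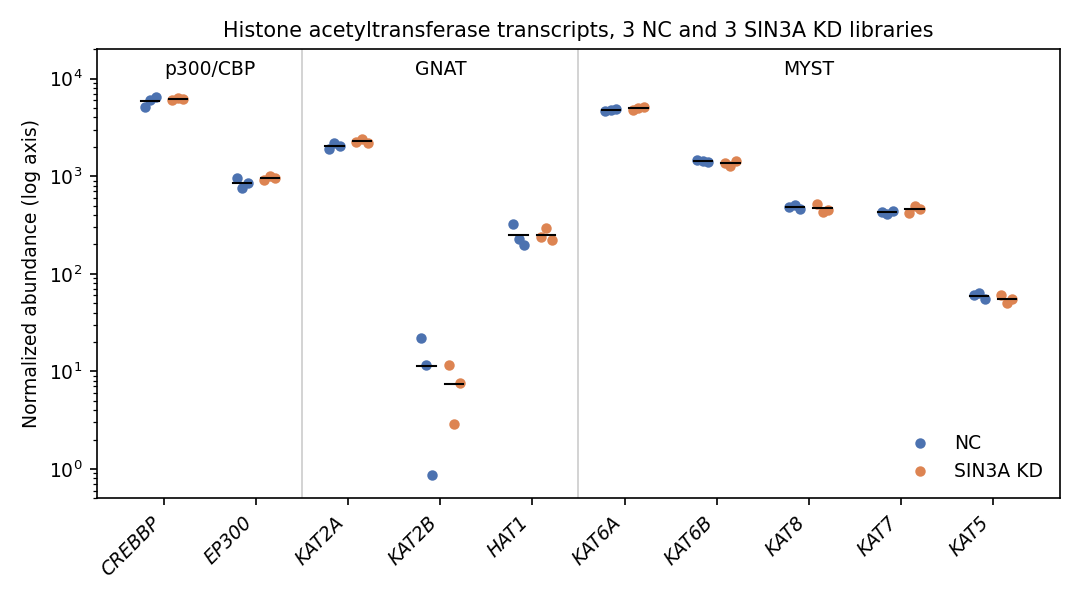
Normalized value of each of the 10 acetyltransferases in every library, on log axes, with NC and SIN3A KD libraries side by side, points for libraries and bars for group means. The KD points lie among or next to the NC points for each gene, and KAT2B is the gene whose libraries scatter most, from 0.858 to 21.9.

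**Figure D2:**
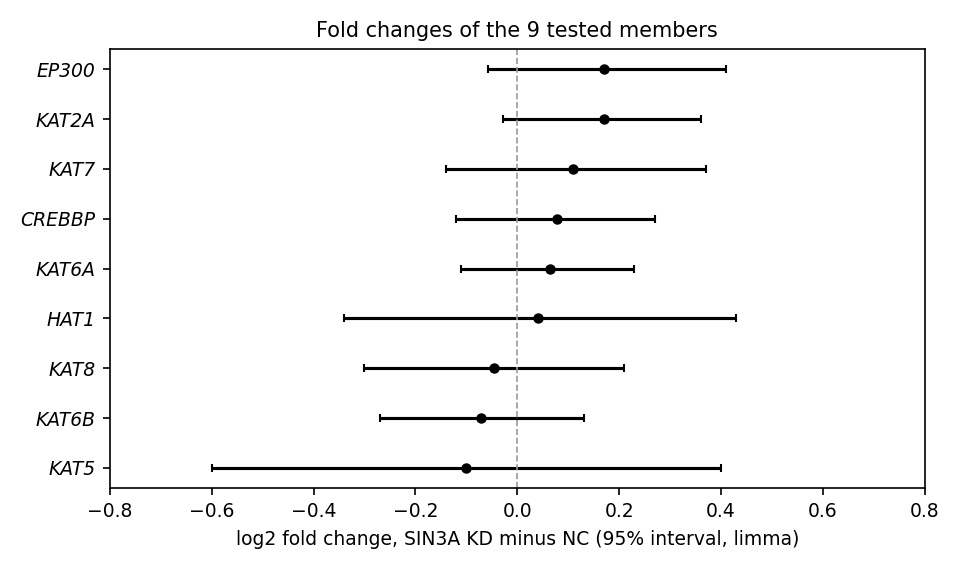
log2 fold change (SIN3A KD minus NC, on log2(value + 1)) of the 9 tested acetyltransferases with 95% intervals from limma. Every interval includes 0, and that of KAT5 is the widest, from -0.60 to 0.40.

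In the GNAT family, KAT2A was the gene whose groups did not overlap. Its values were 1878, 2201 and 2034 in NC and 2256, 2386 and 2207 in KD, with means of 2038 ± 161 and 2283 ± 92.4 (SD, n = 3 each). The lowest KD library stood just above the highest NC library. The log2 fold change was 0.17 (SE 0.092), which limits the KD level to between 98.0% and 128% of NC with 95% confidence, with an unadjusted p of 0.0899 and an adjusted p of 0.997 by limma. That 1 of 9 members had groups that did not overlap compares with 9.79% of all genes tested, and 4.85% of all genes had groups that did not overlap with KD higher. KAT2A, the catalytic subunit of SAGA, lies at chr12:20638493-20647464 on the plus strand in Sscrofa11.1.

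KAT2B, the alternative catalytic subunit, was at the lower end of what these libraries could measure. Its values were 21.9, 11.7 and 0.858 in NC and 11.7, 2.87 and 7.69 in KD, which corresponds to an estimated 1 to 21 reads per library. The groups overlapped, and the SD within NC was close to the mean (11.5 ± 10.5, n = 3). With a mean of 9.44 over the 6 libraries it fell below the filter, and a fit without the filter gave a log2 fold change of -0.11 with a 95% interval of -1.69 to 1.46 (adjusted p = 0.999 by limma). That interval leaves room for a difference in either direction. The gene lies at chr13:6985151-7099771 on the plus strand.

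HAT1, the acetyltransferase of newly made histone H4, varied more between libraries than most members. Its values were 327, 226 and 195 in NC and 241, 294 and 222 in KD, with means of 249 ± 68.6 and 252 ± 37.2 (SD, n = 3 each). The first NC library was the highest of all 6 and the groups overlapped. The log2 fold change was 0.041 (95% interval -0.34 to 0.43), and without that library it was 0.25, while without the third NC library it was -0.12. The same first NC library was the highest for KAT2B, and it held 74.9 of HBB, the beta chain of haemoglobin, where the other 5 libraries held 0 to 1.96. Of the other blood and stromal markers, PTPRC was also highest there (13.9), and PECAM1 was highest in the third NC library (75.7). COL1A1 (15.7), COL3A1 (0) and DCN (2.09) were lowest in the first NC library. The part of that library's make-up in the HAT1 and KAT2B values was not tested. HAT1 lies at chr15:78022147-78079669 on the plus strand.

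Among the MYST genes, KAT6A had the highest value, also per kilobase of mRNA. Its values were 4639, 4737 and 4866 in NC and 4752, 5048 and 5087 in KD. The libraries of each group lay close together, with coefficients of variation of 2.40% and 3.70%, and the groups overlapped. The log2 fold change was 0.064 with an interval of -0.11 to 0.23, so the KD level lay between 92.9% and 118% of NC. KAT6B, its paralog and alternative catalytic subunit, was at 1452, 1419 and 1388 in NC and at 1378, 1260 and 1419 in KD. The KD mean was 95.2% of the NC mean and the interval of the log2 fold change was -0.27 to 0.13. KAT6A lies at chr17:11002818-11109974 on the minus strand and KAT6B at chr14:77390790-77597674 on the plus strand.

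KAT7, the acetyltransferase of H3 and H4 that acts with origin licensing factors, was at 428, 407 and 442 in NC and at 421, 498 and 465 in KD. The 2 highest libraries were KD libraries, but the lowest KD library lay within the NC range. The log2 fold change was 0.11 (SE 0.12, 95% interval -0.14 to 0.37). KAT8, which acetylates histone H4 in the MSL and NSL complexes, was at 480, 504 and 463 in NC and at 522, 433 and 451 in KD. The KD libraries held both the highest and the lowest value, and the log2 fold change was -0.045 (95% interval -0.30 to 0.21). KAT7 lies at chr12:25970966-26005006 on the plus strand and KAT8 at chr3:17362326-17373110 on the minus strand.

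KAT5, the catalytic subunit of NuA4 that also acts in the DNA damage response, was low. Its values were 60.5, 63.1 and 54.8 in NC and 61.3, 49.7 and 55.5 in KD, an estimated 43 to 69 reads per library. The groups overlapped, with means of 59.5 ± 4.23 and 55.5 ± 5.78 (SD, n = 3 each). The interval of the log2 fold change, -0.60 to 0.40, leaves room for a KD level between 65.9% and 132% of NC. KAT5 lies at chr2:6560544-6572461 on the minus strand and overlaps RNASEH2C on the other strand. Of the 31-base words of its longest RefSeq mRNA, 9.68% were also present in the RNASEH2C transcripts. In all, 13.8% of these words occurred in other genes, so some reads counted for KAT5 may belong to them.

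Both p300/CBP genes were slightly higher in the mean of KD, within the spread of the libraries. EP300 was at 951, 755 and 849 in NC and at 909, 997 and 966 in KD. The highest NC library lay within the KD range, and the log2 fold change was 0.17 (SE 0.11, 95% interval -0.057 to 0.41, unadjusted p = 0.13 by limma). CREBBP was at 5137, 6026 and 6469 in NC and at 5983, 6385 and 6153 in KD, so that the NC libraries spanned the whole KD range. Its log2 fold change was 0.077 (95% interval -0.12 to 0.27). Leaving out the first NC library changed the sign of the CREBBP value to -0.017, and it brought EP300 to 0.26, which was the only member below an unadjusted p of 0.05 in any alternative fit. EP300 lies at chr5:7311165-7394515 on the minus strand and CREBBP at chr3:38388366-38530243 on the plus strand.

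To compare levels between genes, each value was divided by the length of the gene's longest RefSeq mRNA in kilobases. In NC, CREBBP had the highest level per kilobase (682 ± 78.7), followed by KAT2A (646 ± 51.1), KAT6A (519 ± 12.5) and KAT8 (328 ± 13.9). KAT6B (165 ± 3.72), HAT1 (154 ± 42.3), KAT7 (105 ± 4.38) and EP300 (88.3 ± 10.2) formed the middle of the order, and KAT5 (10.2 ± 0.723) and KAT2B (1.87 ± 1.72) its end (SD, n = 3 each). The NC ranges of the neighbours CREBBP and KAT2A overlapped, as did those of KAT6B and HAT1, and the other neighbours did not overlap. The median tested gene with a RefSeq length had 60.1 per kilobase, which 8 of the members exceeded and KAT5 and KAT2B did not reach. In the order of all tested genes with a length, CREBBP stood at percentile 91.5, KAT2A at 90.9, KAT6A at 88.3 and KAT8 at 82.1, whereas KAT5 stood at 18.6 and KAT2B, placed in the same order, at 1.49. Against the coding length, chosen after the data had been seen, CREBBP (803), KAT6A (793) and KAT2A (791) could not be ordered, KAT7 (230) stood beside KAT6B (229), and KAT5 (42.9) and KAT2B (4.60) remained last.

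**Figure D3:**
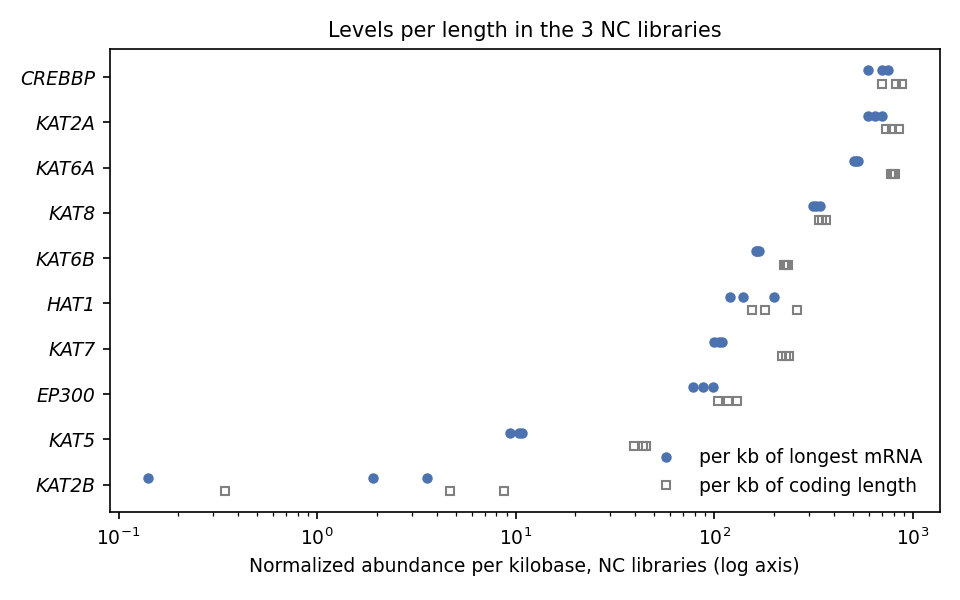
Normalized value per kilobase of the 10 acetyltransferases in each of the 3 NC libraries, on a log axis, with filled points for the longest RefSeq mRNA and open squares for its coding length, in order of the mean per kilobase of mRNA. CREBBP (mean 682) and KAT2A (646) stand at one end and KAT2B (1.87) at the other, and the squares of KAT5 (mean 42.9) lie farther from its points (10.2) than those of the members above it.

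The 3 most abundant genes held most of the summed level. CREBBP, KAT2A and KAT6A held 25.3%, 23.9% and 19.2% of the summed NC level per kilobase of the 10 genes, and in KD 25.3%, 25.5% and 19.1%. By family, the MYST genes held 41.3% to 42.8% in the NC libraries and 38.7% to 41.1% in the KD libraries, and these ranges did not overlap, while with the coding length they did (45.7% to 47.2% and 43.4% to 45.8%). The GNAT genes held 28.0% to 30.6% in NC and 29.9% to 32.3% in KD, and the p300/CBP genes 26.6% to 30.7% and 28.1% to 29.1%. These shares were not tested. The summed level per kilobase of the 10 genes was 2613 to 2753 in the NC libraries and 2802 to 2906 in the KD libraries, so that each KD library lay above each NC library, and with the coding length it was 3462 to 3617 and 3680 to 3836. This sum was not tested. Of single genes tested 9.79% had groups that did not overlap, and 4.85% had such groups with KD higher. No such rate was computed for sums or family shares. KAT2A, the member whose groups did not overlap, contributed 646 in NC and 723 in KD (group means per kilobase of mRNA). The sum for 10 zinc-dependent histone deacetylases was 995 to 1063 in NC and 1022 to 1101 in KD, with overlapping groups. The summed level of the 10 acetyltransferases was 2.64 ± 0.110 times that of the deacetylases in NC and 2.64 ± 0.0955 times in KD (SD, n = 3 each). With the coding length it was 2.42 times in NC and 2.42 times in KD. HDAC8 was not found by name and is missing from the deacetylase sum.

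Within each pair of paralogs 1 gene was the higher in all 6 libraries. CREBBP exceeded EP300 6.90-fold in mean NC value and 7.72-fold per kilobase of mRNA. KAT2A exceeded KAT2B 178-fold in value and 345-fold per kilobase, although the 1 to 21 reads of KAT2B make this factor imprecise. KAT6A exceeded KAT6B 3.34-fold in value and 3.14-fold per kilobase.

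The balance within the pairs was compared between groups as a log2 ratio in each library, with 1 added to both values. The EP300 to CREBBP ratio was -2.43, -3.00 and -2.93 in NC and -2.72, -2.68 and -2.67 in KD, a difference of 0.0975 (SE 0.178, exact two-sided permutation p = 0.6). The KAT6A to KAT6B ratio was 1.67, 1.74 and 1.81 in NC and 1.79, 2.00 and 1.84 in KD, a difference of 0.136 (SE 0.0754, exact p = 0.2). The KAT2A to KAT2B ratio was 6.36, 7.44 and 10.1 in NC and 7.48, 9.27 and 7.99 in KD, a difference of 0.279 (SE 1.23, exact p = 0.8). Since KAT2B was so low, this last ratio depends on the added 1: the difference was 0.12 with 0.1 added, 0.37 with 10 added, and 0.0881 with nothing added. With nothing added, the log2 ratios ran from 6.42 to 11.2. In each pair the groups overlapped, and with adjustment over the 3 pairs the p-values were 0.8, 0.6 and 0.8. With 3 libraries against 3, the smallest p that the exact test can give is 0.1.

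**Figure D4:**
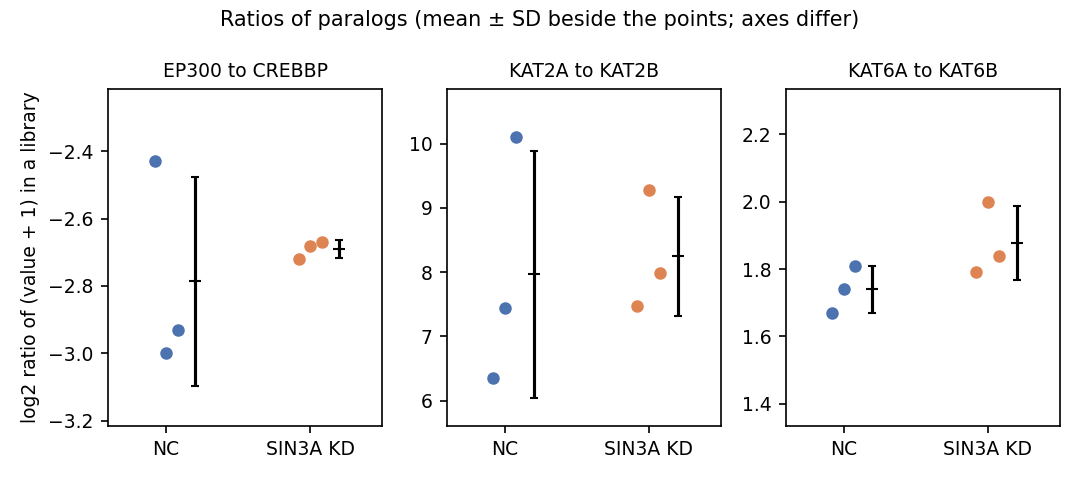
log2 ratio of the values, with 1 added to each, of 3 paralog pairs in each library, NC beside SIN3A KD, with a point for each library and the group mean ± SD beside the points. Each pair has an axis of its own, and KAT2A to KAT2B spans 6.36 to 10.1, EP300 to CREBBP -3.00 to -2.43, and KAT6A to KAT6B 1.67 to 2.00.

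The acetyltransferases act in complexes, and 122 genes of their partners, of acetyl-CoA supply, of acetyl-lysine readers and of deacetylases were listed in 10 lists. Of these, 111 were found and 104 tested, and 0 were called at an adjusted p below 0.05 by limma. At an unadjusted p below 0.05, 5 of the 104 (4.81%) were called, beside 4.61% of all genes tested, and the groups of 16 (15.4%) did not overlap, beside 9.79%. The log2 fold changes of the 104 genes had a median of -0.0161, with 46 above and 58 below 0. The list medians lay between -0.0651 for the MOZ, MORF and HBO1 subunits and 0.0369 for acetyl-CoA supply.

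**Figure D5:**
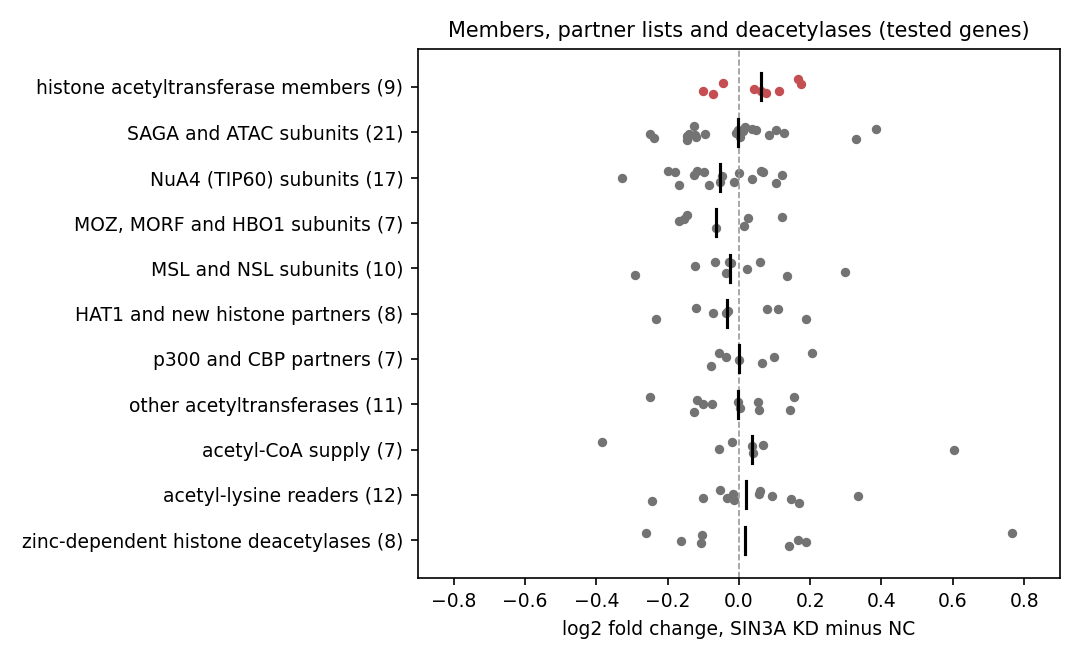
log2 fold change (SIN3A KD minus NC, on log2(value + 1)) of the tested acetyltransferases (red, first line) and of the tested genes in the 10 lists (grey), with a point for each gene, a black bar for each median and the number of genes in brackets. The list medians lie between -0.0651 and 0.0369, beside 0.0635 for the acetyltransferases, and the 2 points above 0.5 are HDAC5 and SLC25A1.

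Of the SAGA and ATAC subunits, the complexes of KAT2A, 21 were tested and the median log2 fold change was -0.0034. TADA1, a SAGA core subunit, had the smallest p of the list, with values of 697, 712 and 650 in NC and 556, 583 and 607 in KD (log2 fold change -0.24, unadjusted p = 0.0419, adjusted p = 0.997 by limma). All 3 KD libraries lay below the NC libraries. TRRAP, the large scaffold shared by SAGA and NuA4, had the highest mean value of both lists, not divided by length. Its means were 9189 ± 237 in NC and 9916 ± 1215 in KD (SD, n = 3 each).

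Of the 17 NuA4 subunits tested, the partners of KAT5, 5 had fold changes above and 12 below 0, with a median of -0.0515. MBTD1, which binds methylated histone H4, had the smallest p of the list. It was at 1849, 1693 and 1651 in NC and at 1561, 1505 and 1512 in KD, and its groups did not overlap (log2 fold change -0.18, unadjusted p = 0.0659, adjusted p = 0.997 by limma). MEAF6, a small subunit shared by NuA4 and the MYST complexes of KAT6A, KAT6B and KAT7, had the smallest p of the MOZ, MORF and HBO1 list. It was at 931, 921 and 910 in NC and at 854, 810 and 794 in KD (log2 fold change -0.17, unadjusted p = 0.109 by limma). BRD1, a scaffold of the KAT7 and KAT6A complexes, had the highest mean value of the 7 genes tested in that MOZ, MORF and HBO1 list. Its log2 fold change was 0.12.

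In the list of MSL and NSL subunits, the partners of KAT8, MSL3, a chromodomain subunit of MSL, had the smallest p. It was at 587, 540 and 528 in NC and at 455, 487 and 413 in KD, so the groups did not overlap (log2 fold change -0.29, unadjusted p = 0.0251, adjusted p = 0.997 by limma). HCFC1, the cell cycle host factor that is part of NSL, had the highest mean value, and its log2 fold change was 0.13 with overlapping groups. The median of the 10 genes tested was -0.0242.

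Among the partners of HAT1, CHAF1B, a subunit of the chromatin assembly factor CAF-1, had the smallest p. It was at 935, 926 and 856 in NC and at 1124, 997 and 978 in KD, with groups that did not overlap (log2 fold change 0.19, unadjusted p = 0.0856, adjusted p = 0.997 by limma). NASP, a histone chaperone, had the highest mean value, and its log2 fold change was 0.11. Among the p300 and CBP partners, CARM1, an arginine methyltransferase, had a log2 fold change of 0.21. The nuclear receptor coactivator NCOA3 had the highest mean value, 37788 over the 6 libraries, and a log2 fold change of 0.098. Neither of these partners passed the test. ESCO2, which acetylates cohesin, had the smallest p and the highest mean among the other acetyltransferases, with values of 11919, 10795 and 10236 in NC and 9622, 7976 and 10212 in KD (log2 fold change -0.25, unadjusted p = 0.0209, adjusted p = 0.997 by limma). The highest KD library lay just below the lowest NC library.

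In the supply of acetyl-CoA, the mitochondrial citrate carrier SLC25A1 had the smallest p, with low values of 16.1 to 34.0 in NC and 27.4 to 48.1 in KD, and a log2 fold change of 0.60 with an interval of -0.16 to 1.37. DLAT, the E2 subunit of pyruvate dehydrogenase, had the highest mean value, with a log2 fold change of 0.037. Among the readers, the bromodomain protein TRIM24 had the smallest p of all 104 genes, at 344, 354 and 372 in NC and at 474, 458 and 420 in KD (log2 fold change 0.33, unadjusted p = 0.0134, adjusted p = 0.904 by limma). Its groups did not overlap. CECR2, another bromodomain protein, had the highest mean value of the readers and a log2 fold change of 0.15.

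The deacetylases, which act against the acetyltransferases, gave 0 calls among 8 tested, with a median log2 fold change of 0.0186. HDAC2 had the smallest p, with values of 517, 475 and 454 in NC and 357, 388 and 468 in KD (log2 fold change -0.26, adjusted p = 0.997 by limma). HDAC1 had the highest mean value, with means of 916 ± 67.6 in NC and 1028 ± 57.0 in KD (SD, n = 3 each) and a log2 fold change of 0.17. The groups of both overlapped. HDAC5 had the highest log2 fold change of the list, 0.76, and was also not called (adjusted p = 0.997 by limma). It is named here because its fold change was seen.

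The genes whose pattern over the 6 libraries was most like that of the acetyltransferases were sought for the member with the smallest p and for the most abundant member, by Pearson's r of log2(value + 1). For KAT2A they were SERPINF1 (r = 0.998), TRAPPC1 (0.983) and the unnamed ENSSSCG00000001850 (0.98), and 24 tested genes had r above 0.95. For CREBBP they were SH3GL1 (0.998), ADAMTSL5 (0.995) and TRIM62 (0.993), and 67 genes had r above 0.95. These values describe 6 libraries that share 1 scaling, and the number of unrelated genes expected above 0.95 was not computed. SERPINF1, TRAPPC1 and TRIM62 had means below 100, so their values are less precise.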

How the data were processed

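The authors assigned reads of poly(A) RNA libraries to Sscrofa11.1 with Salmon 0.14.1 and compared the groups with DESeq2, per the labels. They deposited 1 table of normalized signal per Ensembl gene. Between 51.3% and 70.1% of the low values of a library lay on multiples of 1 spacing (tolerance 0.03), so whole reads could not be restored and count models were not used. Depth was estimated from that spacing (7800000 to 15800000 reads), and the lower a value, the less precise its fold change. The spike-in mRNAs named in the labels were not used, so total mRNA per embryo was not assessed.

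Groups and replicate numbers came from the sample labels. Of 17678 genes, the 11986 whose mean over the libraries reached 10 were tested on log2(value + 1) with limma 3.58.1 in R 4.3.3 (lmFit, eBayes with a variance trend, Benjamini-Hochberg), and called at an adjusted p below 0.05. Fold changes are on that scale, which understates the change of low genes. Ratios of paralogs were compared by an exact permutation test in scipy 1.17.1 (Python 3.11.15). Positions, lengths and sequences came from the RefSeq annotation of Sscrofa11.1, read with pysam 0.24.0, and 81.4% of tested genes had a RefSeq length by symbol. The fit was tested on simulated data.

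Named genes were every member, SIN3A, any called gene of a list, and the 3 genes most like each of 2 members. In each partner list they were also the gene with the smallest p and that with the highest mean, not divided by length. The members and lists were chosen with earlier results of these data known. Of the 122 partner genes, 11 were not found by name and 7 were below the filter. The study's methods state 3 replicates, but nothing used here says that they came from separate batches of oocytes, so p-values measure the spread between these libraries. The alternatives were other pseudocounts, filters and scalings, no variance trend, robust empirical Bayes, a replicate block and leaving out each library.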

Additional observations from a re-analysis of the deposited data

How the results depend on the processing

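The count of acetyltransferases called was 0 under every alternative run, with a lowest adjusted p of 0.82 by limma, for KAT2A. Over all genes tested, 0 were called without the variance trend (622 at an unadjusted p below 0.05), and 11 to 19 when 1 library was left out. The targeted gene SIN3A kept a log2 fold change of -3.81 but had an adjusted p of 0.423 without the trend and 0.469 with robust empirical Bayes, and ranged from -4.20 to -3.22 with 1 library left out. The cause was not tested. Leaving out 1 library changed the sign of CREBBP (-0.017 to 0.15), HAT1 (-0.12 to 0.25), KAT8 (-0.13 to 0.009), HCFC1 (-0.025 to 0.24), ADAMTSL5 (-0.079 to 0.33), SH3GL1 (-0.023 to 0.23) and TRIM62 (-0.021 to 1.13), of the EP300 to CREBBP ratio (-0.0075 to 0.27) and of the KAT2A to KAT2B ratio (-0.52 to 1.34). Of 490 comparisons over the 33 named genes tested other than SIN3A, 481 kept their sign and side of the threshold, and 9 changed sign, none of them called. All 9 sign changes came from leaving out 1 library. The fits without the trend, with robust empirical Bayes and with the replicate block cannot change a fold change in this design, so part of the 481 kept its sign by construction. The median of the same 9 acetyltransferases ranged from 0.047 to 0.094 with 1 library left out, and was 0.0038 without the third NC library once KAT2B passed the filter as the tenth. With the coding length, CREBBP held 22.6% of the summed level.

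Same-numbered NC and KD libraries deviated together with correlations of 0.109, 0.111 and 0.0872, and the other pairs had -0.0828 to -0.0215. The study describes replicates that held embryos of both groups, but does not say that a library's number marks a shared batch. The main fit used no block. With the replicate block, 26 genes were called and 0 acetyltransferases or partner genes. The ratio differences cannot change with the block in this design. They stayed at 0.098 for EP300 to CREBBP, 0.28 for KAT2A to KAT2B and 0.14 for KAT6A to KAT6B. Each library had its highest correlation with the library of its own number. KAT2B and KAT5 had the fewest estimated reads and the widest intervals of the members.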
